A study of Rattus norvegicus with 15 samples.

Results

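The glycerolipid acyltransferases and lipins are the enzymes that build phosphatidate and triacylglycerol, the storage fat of the liver. The 10 genes described here are Gpam, Gpat4, Agpat1, Agpat2, Agpat3, Lpin1, Lpin2, Dgat1, Dgat2 and Mogat1. Their members on the array were all probe sets that the array's annotation gives to 1 of these genes and to no other gene, which found 21 of the 31042 probe sets other than controls, with at least 1 for each of the 10 genes. Values were deposited for 15 arrays of liver total RNA, from male Sprague-Dawley rats that were 4 weeks old at the start and adapted for 5 days. The rats then ate 1 of 3 diets for 14 days: an isoflavone-free control diet, the same diet with 2 g/kg daidzein, or the same diet with 2 g/kg genistein. Each diet has 5 arrays, named here by diet and by the biological replicate number in their titles. All diets shared a base of 200 g/kg casein, 100 g/kg palm oil and 150 g/kg corn starch, with sucrose making up most of the rest. Both isoflavones come from soy, and genistein carries a hydroxyl group that daidzein lacks.

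Triacylglycerol is made in the liver mainly by the glycerol 3-phosphate pathway. Glycerol 3-phosphate acyltransferases (Gpam at the outer mitochondrial membrane, Gpat4 in the endoplasmic reticulum) attach a first fatty acid, and acylglycerol phosphate acyltransferases (Agpat1, Agpat2, Agpat3) add another to make phosphatidate, which can also be drawn off into phospholipids. Lipins (Lpin1, Lpin2) remove the phosphate to give diacylglycerol, and Dgat1 or Dgat2 adds the last fatty acid. Mogat1 makes diacylglycerol by a side route, from monoacylglycerol. The transcription factor SREBP-1, encoded by Srebf1, is known to act on the Gpam and Lpin1 promoters together with the CCAAT-binding factor NF-Y.

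The upstream sequences of Gpam and Lpin1 are shown because these promoters are the known SREBP-1 and NF-Y targets among the members. They are the 250 bases before the annotated start in RefSeq's GRCr8 build, both on the minus strand, at chr1:264175912-264176161 for Gpam and chr6:45108943-45109192 for Lpin1. Each is written 5′ to 3′ towards the start, with CCAAT, read on either strand, in capitals.
Gpam: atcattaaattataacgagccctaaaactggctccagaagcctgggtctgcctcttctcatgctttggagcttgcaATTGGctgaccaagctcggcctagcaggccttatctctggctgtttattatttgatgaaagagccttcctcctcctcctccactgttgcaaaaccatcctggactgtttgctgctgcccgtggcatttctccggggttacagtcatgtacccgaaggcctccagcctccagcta
Lpin1: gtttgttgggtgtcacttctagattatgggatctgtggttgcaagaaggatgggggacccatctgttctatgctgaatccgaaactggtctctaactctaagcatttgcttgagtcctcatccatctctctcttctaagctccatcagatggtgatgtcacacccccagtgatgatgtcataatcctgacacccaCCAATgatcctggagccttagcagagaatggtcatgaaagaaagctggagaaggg
The match began 174 bases before the Gpam start and 55 bases before the Lpin1 start. Across the 7 members with an entry in the RefSeq promoter table, 4 held CCAAT (Gpam, Agpat1, Lpin1 and Mogat1), as did 34% of all 33469 promoters. The letters GGGCGG (GC box) were found in 2 of the 7 (Agpat1 and Agpat2) and in 30.5% of all. TCACNCCAC, of the sterol regulatory element type that SREBP-1 binds, was found in 0 of the 7 and in 0.974% of all. CACGTG (E-box) was found in 0 of the 7 and in 5.59% of all. The Gpam and Lpin1 stretches shown thus hold neither TCACNCCAC nor CACGTG, and other forms of SREBP-1 site were not searched. All searches covered both strands. Gpat4, Dgat1 and Dgat2 had no entry.

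Levels and differences are in log2 units rebuilt from deposited scores, with an arbitrary zero, so a level is read only against the same probe set in other arrays. Of the 21 probe sets, 18 (for 9 genes) had a mean level at or above -0.30, the 40th percentile that the test required. The other 3, 1371748_at of Agpat1, 1380480_at of Agpat3 and 1385308_at of Mogat1, lay below it. All 6 hepatocyte markers lay above that level, and the mean over them was between 7.68 and 7.99 in every array. That mean is partly fixed by the quantile normalization, which gave Alb, the top probe set, 9.29 in every array. It also hides Tat, at 5.01 ± 0.52 with control, 4.50 ± 0.56 with daidzein and 3.99 ± 0.58 with genistein (SD). Genistein minus control was -1.02 for Tat (limma adjusted p = 0.222). For Serpina1, Apoa1, Ttr and Cyp2e1 it was -0.09, 0.04, 0.05 and 0.24. Of 5 adipocyte markers measured, only Cidec, which the liver can make as well, reached the level required for the test. Adipoq, Plin1, Lep and Fabp4 did not. Fewer cells of a type and less RNA per cell cannot be told apart in whole liver.

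The clearest difference lay between the 2 isoflavones. Gpat4 was lower with genistein than with daidzein, and it was the member that passed the test, on 1 of its 2 probe sets: 1 of 18 member probe sets was called, where 0.113% of all 18625 tested were called in this comparison (limma, Benjamini-Hochberg adjusted p under 0.05) and 0.0805% were called lower. Dgat2, the enzyme of the last step that favours newly made fatty acids, stood higher with genistein on both of its probe sets, with adjusted p of 0.0534 and 0.0879 that missed the threshold. No member was called against the control diet. The remaining members of the path, from Gpam to Lpin2, overlapped between every pair of diets, apart from Dgat1 between genistein and control.

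Gpat4 is described first. On 1384383_at the control arrays 1 to 5 read 1.27, 1.36, 1.41, 1.70 and 1.55, the daidzein arrays 1.75, 1.52, 1.77, 1.76 and 1.61, and the genistein arrays 1.22, 0.95, 1.01, 1.08 and 1.30. All 5 genistein arrays lay below every daidzein array, and 4 of them lay below every control array. The means were 1.46 ± 0.17 with control, 1.68 ± 0.11 with daidzein and 1.11 ± 0.15 with genistein (SD, n = 5 each). Genistein minus daidzein was -0.57 (95% confidence interval -0.78 to -0.37, SE 0.10, limma adjusted p = 0.0344), which is 1.49-fold lower. Against control the same probe set stood at -0.35 with genistein (SE 0.10, adjusted p = 0.168) and at 0.23 with daidzein (SE 0.10, adjusted p = 0.579), so the controls lay between the isoflavones without being called apart from either. The call against daidzein was lost in 8 of the 10 fits that left out 1 array, all but those without genistein 4 or genistein 5, with differences from -0.62 to -0.53 in the 10. The adjusted p ranged from 0.0221 to 0.192 over 19 alternative fits, with 5 below the threshold; it was 0.0829 with the title numbers as a block, 0.0839 with only the 10 arrays compared and 0.0566 without normalization between arrays.

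The other Gpat4 probe set, 1372919_at, read 2.77, 2.92, 2.65, 2.95 and 2.73 in control arrays 1 to 5, 3.05, 2.89, 2.68, 2.88 and 2.78 with daidzein, and 2.37, 2.40, 2.12, 2.76 and 2.57 with genistein. Genistein 4 overlapped the other diets, and the other 4 genistein arrays were below all of them. Genistein minus daidzein was -0.41 (interval -0.65 to -0.17, adjusted p = 0.178) and genistein minus control -0.36 (interval -0.60 to -0.12, adjusted p = 0.221), while daidzein minus control was 0.05 (interval -0.19 to 0.29, adjusted p = 0.927). The probe sets shared their direction between the isoflavones, but within the diets they varied together only loosely (Pearson r 0.25 over the 15 arrays after the diet means were removed).

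Dgat2 stood on the opposite side from Gpat4 in the genistein arrays. On 1391045_at control arrays 1 to 5 read 4.60, 4.36, 4.57, 4.74 and 4.81, daidzein arrays 4.55, 4.66, 4.52, 4.54 and 4.11, and genistein arrays 5.22, 5.12, 5.55, 4.86 and 5.25. Every genistein array lay above every array of the other diets. The means were 4.62 ± 0.17, 4.47 ± 0.21 and 5.20 ± 0.25 for control, daidzein and genistein (SD, n = 5 each). Genistein minus daidzein was 0.73 (SE 0.13, interval 0.45 to 1.01, 1.65-fold), with an adjusted p of 0.0534. Genistein minus control was 0.58 (SE 0.13, interval 0.30 to 0.87), with an adjusted p of 0.0784. Both were called without genistein 4, the genistein array nearest the other diets (0.81 with adjusted p = 0.0108 and 0.67 with adjusted p = 0.0204). Leaving out that nearest array widens both differences by construction. Both were also called with a variance model that follows the mean level (adjusted p = 0.0250 and 0.0456). Of the 19 alternatives, 3 called the difference from daidzein and 2 the difference from control. Over the 19 alternatives the adjusted p lay between 0.0108 and 0.385 against daidzein and between 0.0204 and 0.428 against control.

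On the brighter Dgat2 probe set, 1371615_at, the readings were 5.77, 5.28, 5.53, 5.54 and 5.67 with control, 5.57, 5.42, 5.23, 5.31 and 4.79 with daidzein, and 5.91, 5.80, 6.02, 5.75 and 5.84 with genistein. Genistein stood above all daidzein arrays and overlapped the control arrays through control 1. Genistein minus daidzein was 0.60 (interval 0.32 to 0.88, adjusted p = 0.0879), or 0.48 without daidzein 5, the lowest array on both Dgat2 probe sets. On 1371615_at genistein was called in 0 of the 19 alternatives against daidzein and in 0 of the 19 against control. Daidzein minus control was -0.30 (interval -0.58 to -0.02, adjusted p = 0.589) and -0.12 without both control 1 and daidzein 5. Against control the isoflavones thus stood on opposite sides of 0 for Dgat2, with neither difference called; both use the same control arrays.

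**Figure D1:**
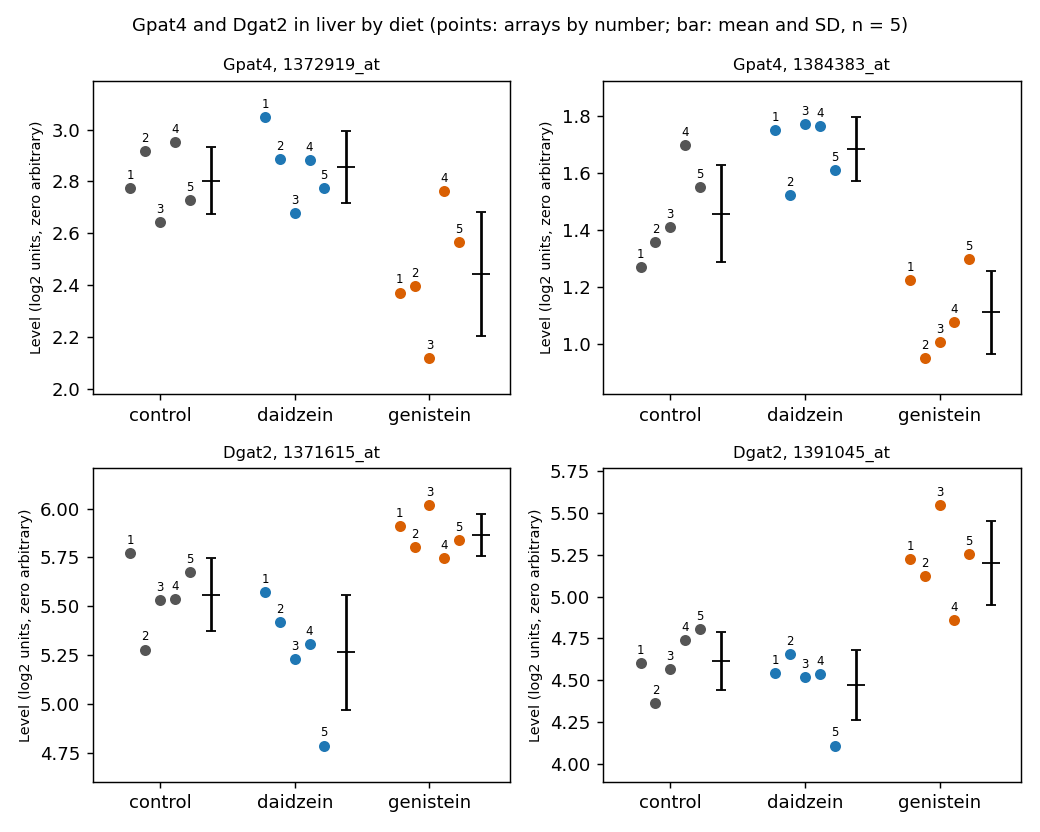
Level of each probe set of Gpat4 (top) and Dgat2 (bottom) in log2 units with an arbitrary zero, by diet; points are arrays labelled with their replicate number, bars show mean and SD (n = 5). Genistein arrays of Gpat4 1384383_at sit between 0.95 and 1.30, below all daidzein arrays, and those of Dgat2 1391045_at sit between 4.86 and 5.55, above all arrays of the other diets.

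Because both genes showed 1 direction on their pair of probe sets, the mean of the tested probe sets of each gene was also fitted over 10745 genes, a choice made after seeing the data. Gpat4 was then called lower with genistein than with daidzein (difference -0.49, interval -0.67 to -0.31, 1.41-fold lower, limma adjusted p = 0.0286) and Dgat2 higher (0.66, interval 0.40 to 0.93, 1.58-fold, adjusted p = 0.0370). In this fit 44 of the 10745 genes, 0.409%, were called between the isoflavones. Each of the 2 calls held in 6 of 19 alternatives, with adjusted p from 0.0142 to 0.232 for Gpat4 and from 0.0144 to 0.317 for Dgat2. With 1 array left out, Gpat4 was called in 3 of 10 fits (without daidzein 2, genistein 4 or genistein 5) and Dgat2 in 3 of 10 (without daidzein 1, daidzein 2 or genistein 4). Against control the gene means differed with genistein by -0.35 for Gpat4 (adjusted p = 0.0924) and by 0.44 for Dgat2 (adjusted p = 0.138), and neither was called, where 0.484% of all genes were. In these means the genistein arrays ran from 1.56 to 1.93 for Gpat4 against 2.02 to 2.32 in control and 2.19 to 2.40 in daidzein arrays. For Dgat2 they ran from 5.30 to 5.78 against 4.82 to 5.24 in control and 4.45 to 5.06 in daidzein arrays. On this averaged scale all 5 genistein arrays were below the 10 others for Gpat4 and above them for Dgat2, as were 0.27% and 0.298% of all genes in these directions. Within the diets the genes showed no strong relation (r from -0.42 to 0.25 over the 4 pairs of probe sets, 15 arrays).

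**Figure D2:**
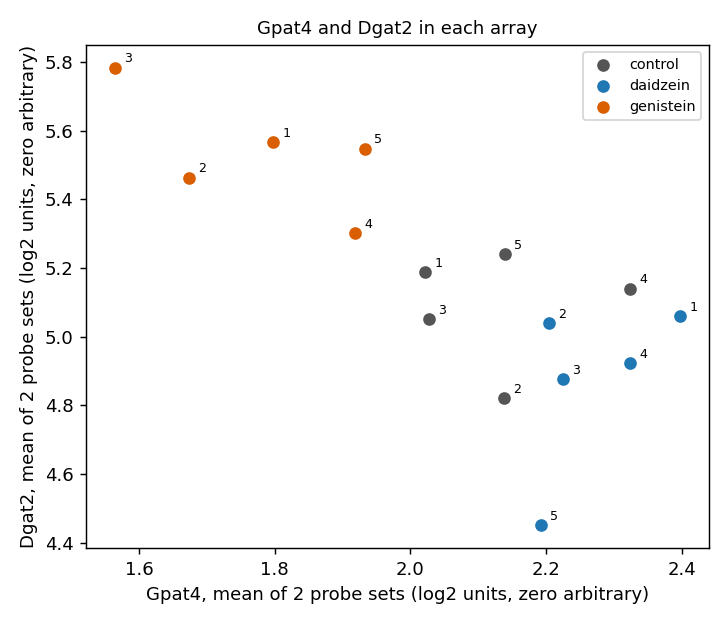
Mean of the 2 Gpat4 probe sets (horizontal) against the mean of the 2 Dgat2 probe sets (vertical) in each array, in log2 units with an arbitrary zero and coloured by diet. The 5 genistein arrays lie at the upper left, with Gpat4 from 1.56 to 1.93 and Dgat2 from 5.30 to 5.78, apart from the 10 control and daidzein arrays.

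No single marker of hepatic stellate cells was called between the isoflavones (adjusted p from 0.208 for Col3a1 to 0.955 for Des), but their list mean did not overlap. All 6 stellate markers reached the filter level. Their mean ran from 1.80 to 2.04 in daidzein arrays, from 2.07 to 2.23 in genistein arrays and from 2.07 to 2.22 in control arrays. Every daidzein array was thus below all the others, an order that was not tested. How often the mean of 6 other genes stands apart in this way was not counted. Against control, single markers did not all share that order. On the brightest probe set of each, daidzein minus control was -0.76 for Dcn, -0.34 for Reln and -0.30 for Col3a1. It was -0.02 for Col1a1, -0.01 for Lrat and 0.15 for Des (limma adjusted p from 0.382 to 0.989 over the 6). Between the isoflavones all 6 had the same sign on these probe sets, with none called. Genistein minus daidzein was 0.32 for Col3a1, 0.30 for Dcn, 0.27 for Reln, 0.26 for Lrat, 0.19 for Col1a1 and 0.05 for Des. The part of this list mean in the differences of Gpat4 and Dgat2 between the isoflavones was not tested. The 5 macrophage markers measured (2.54 to 2.98 with daidzein and 2.70 to 3.20 with genistein) and the 5 endothelial markers (2.10 to 2.35 and 2.06 to 2.52) overlapped between those diets. So did those of blood (3.50 to 4.14 and 3.54 to 3.73), intestine (1.75 to 2.13 and 1.92 to 2.42) and bile duct cells (-0.48 to 0.23 and -0.24 to 0.12).

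Gpam, the mitochondrial first-step enzyme and a common control point of the path, was not called in any comparison. On 1382986_at the control arrays ranged from 0.68 to 2.40, the daidzein arrays from 0.78 to 2.06 and the genistein arrays from 0.99 to 2.34. The range inside each diet was wider than any difference between diets. Genistein minus control was 0.40 (interval -0.33 to 1.12, adjusted p = 0.743), daidzein minus control -0.07 (interval -0.80 to 0.65, adjusted p = 0.969) and genistein minus daidzein 0.47 (interval -0.26 to 1.19, adjusted p = 0.747). On 1369758_at genistein minus control was -0.03 (interval -0.58 to 0.53), daidzein minus control -0.24 (interval -0.79 to 0.32) and genistein minus daidzein 0.21 (interval -0.34 to 0.77), with adjusted p from 0.855 to 0.986. Both Gpam probe sets followed each other across rats (r 0.93 within the diets, 15 arrays), and control 4, daidzein 1 and genistein 1 were the highest array of their diet on each. With intervals this wide, a moderate difference of Gpam in either direction was not detectable with 5 arrays per diet.

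The acylglycerol phosphate acyltransferases, which complete phosphatidate, were not called in any comparison. Agpat2, the isoform whose loss causes lipodystrophy, read 4.15 ± 0.11 with control, 4.11 ± 0.19 with daidzein and 4.11 ± 0.23 with genistein on 1374570_at (SD, n = 5 each). The isoflavone diets lay within 0.05 of control, with intervals from -0.29 to 0.20 for both. Agpat1 on 1392763_at differed from control by 0.05 with genistein (interval -0.15 to 0.25) and by -0.02 with daidzein (interval -0.22 to 0.19). The intervals of these tested probe sets against control thus lie between -0.29 and 0.25. The dimmer Agpat1 probe set, 1371748_at, ranged from -1.06 to 0.01 over the 15 arrays and was not tested.

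Agpat3, a broadly expressed isoform, has 6 probe sets, of which 5 were tested and none was called. Their differences from control ran from -0.20 to 0.12 with genistein and from -0.06 to 0.18 with daidzein, with adjusted p from 0.789 to 0.999 and from 0.821 to 0.994. Within the diets 1372276_at, 1382041_at and 1382227_at varied together (r from 0.71 to 0.87, 15 arrays), whereas 1396569_at, whose mean level of -0.28 is next to the filter level, ran against the other 4 tested (r from -0.51 to -0.26). The sixth, 1380480_at, lay between -3.48 and -1.41, below the filter level.

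**Figure D3:**
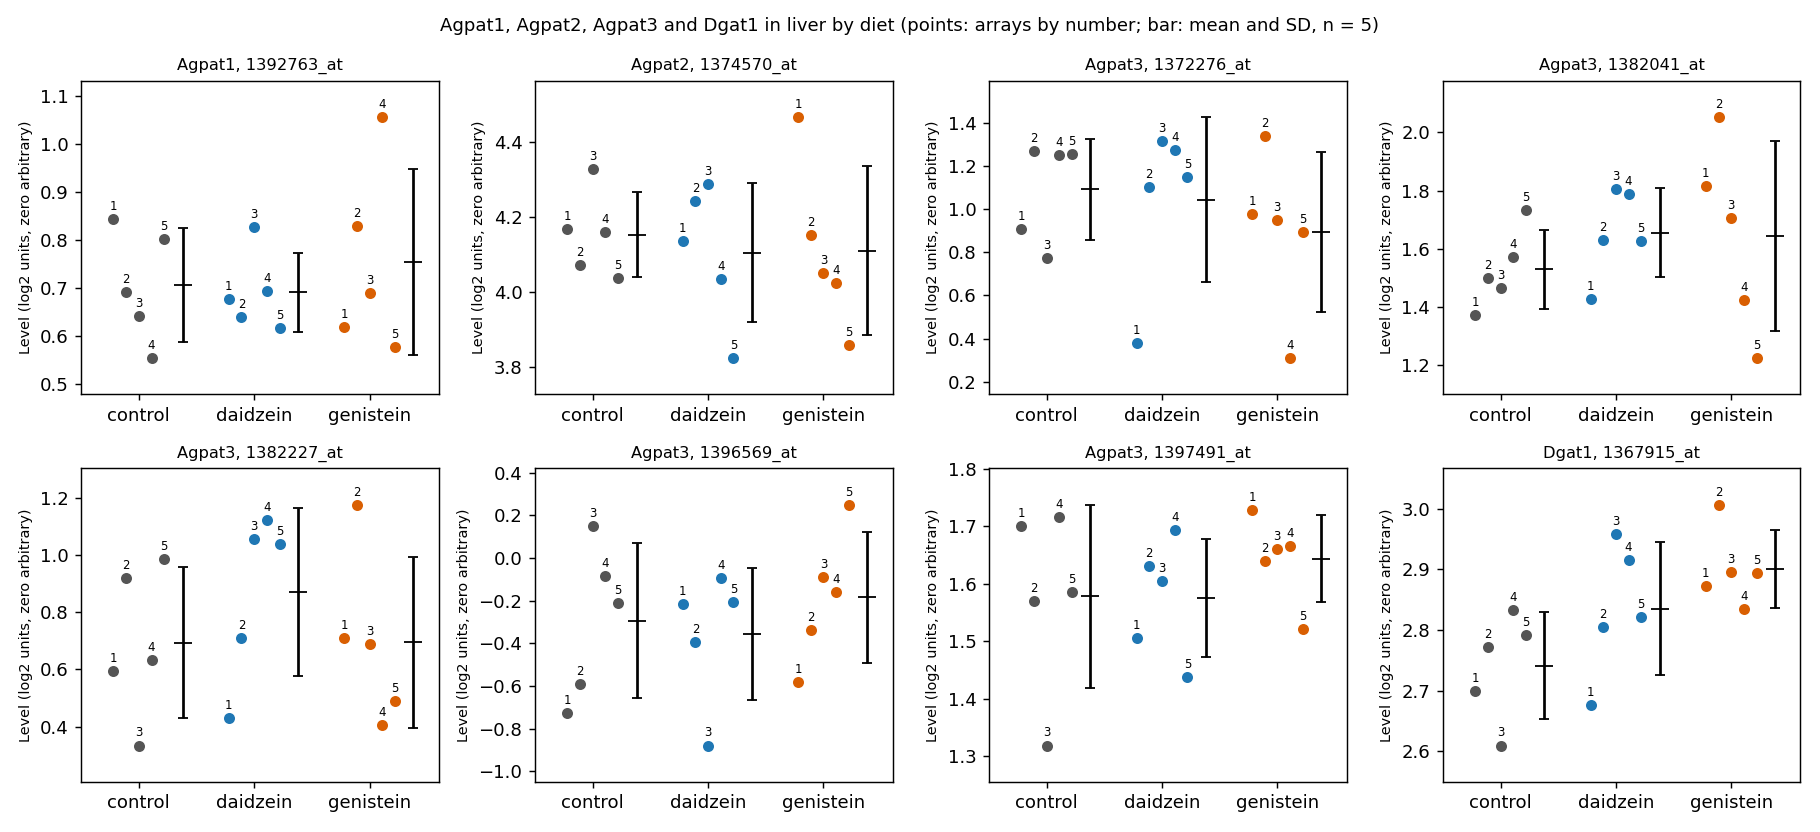
Level of the tested probe sets of Agpat1, Agpat2, Agpat3 and Dgat1 in log2 units with an arbitrary zero, by diet; points are arrays labelled with their replicate number, bars show mean and SD (n = 5). The diets overlap for every Agpat probe set, and for Dgat1 the genistein arrays, from 2.83 to 3.01, lie at the upper edge of the control arrays, from 2.61 to 2.83.

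Lpin1, the lipin that fasting and glucocorticoids induce in liver, varied more between rats than between diets. On 1377599_at control arrays 1 to 5 read 2.73, 3.35, 3.09, 3.19 and 2.73, daidzein arrays 2.84, 3.66, 2.71, 2.90 and 2.79, and genistein arrays 2.44, 2.68, 4.28, 3.65 and 4.00. Genistein arrays 3, 4 and 5 were high and 1 and 2 were low, with nothing in between. The SD was 0.81 with genistein against 0.28 with control and 0.38 with daidzein. Genistein minus control was 0.39 (interval -0.28 to 1.06, limma adjusted p = 0.720). It was 0.17 without genistein 3 and 0.24 without genistein 5, but 0.63 without genistein 1 and 0.57 without genistein 2. The other Lpin1 probe set, 1372524_at, followed it closely (r 0.98 within the diets, 15 arrays), with genistein minus control at 0.27 (adjusted p = 0.816) and daidzein minus control at -0.07 (adjusted p = 0.964). Genistein minus daidzein was 0.43 on 1377599_at (interval -0.25 to 1.10, adjusted p = 0.751) and 0.34 on 1372524_at (interval -0.29 to 0.98, adjusted p = 0.801). The fit assumes 1 spread for all diets, which these SDs do not show.

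Lpin2, the other hepatic lipin, had lower means with both isoflavones on 1383665_at. Control arrays 1 to 5 read 2.10, 1.67, 1.82, 2.38 and 1.69, daidzein arrays 1.78, 1.55, 1.55, 1.31 and 1.47, and genistein arrays 0.61, 1.18, 1.56, 1.06 and 2.04. Genistein 5 lay among the controls and the other 4 genistein arrays lay below all of them, while daidzein 1 was the array of its diet that overlapped the controls. Genistein minus control was -0.64 (SE 0.22, interval -1.11 to -0.18, adjusted p = 0.274), the widest difference from control among the 18 tested probe sets, and daidzein minus control was -0.40 (interval -0.86 to 0.07, adjusted p = 0.657). Neither was called. Genistein minus daidzein was -0.24 on this probe set (interval -0.71 to 0.22, adjusted p = 0.808) and -0.04 on the dimmer 1396398_at (interval -0.51 to 0.42, adjusted p = 0.979). On 1396398_at, close to the filter level, the differences from control were -0.18 with genistein (adjusted p = 0.832) and -0.14 with daidzein (adjusted p = 0.898), and the 2 Lpin2 probe sets agreed only in part (r 0.40 within the diets, 15 arrays).

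**Figure D4:**
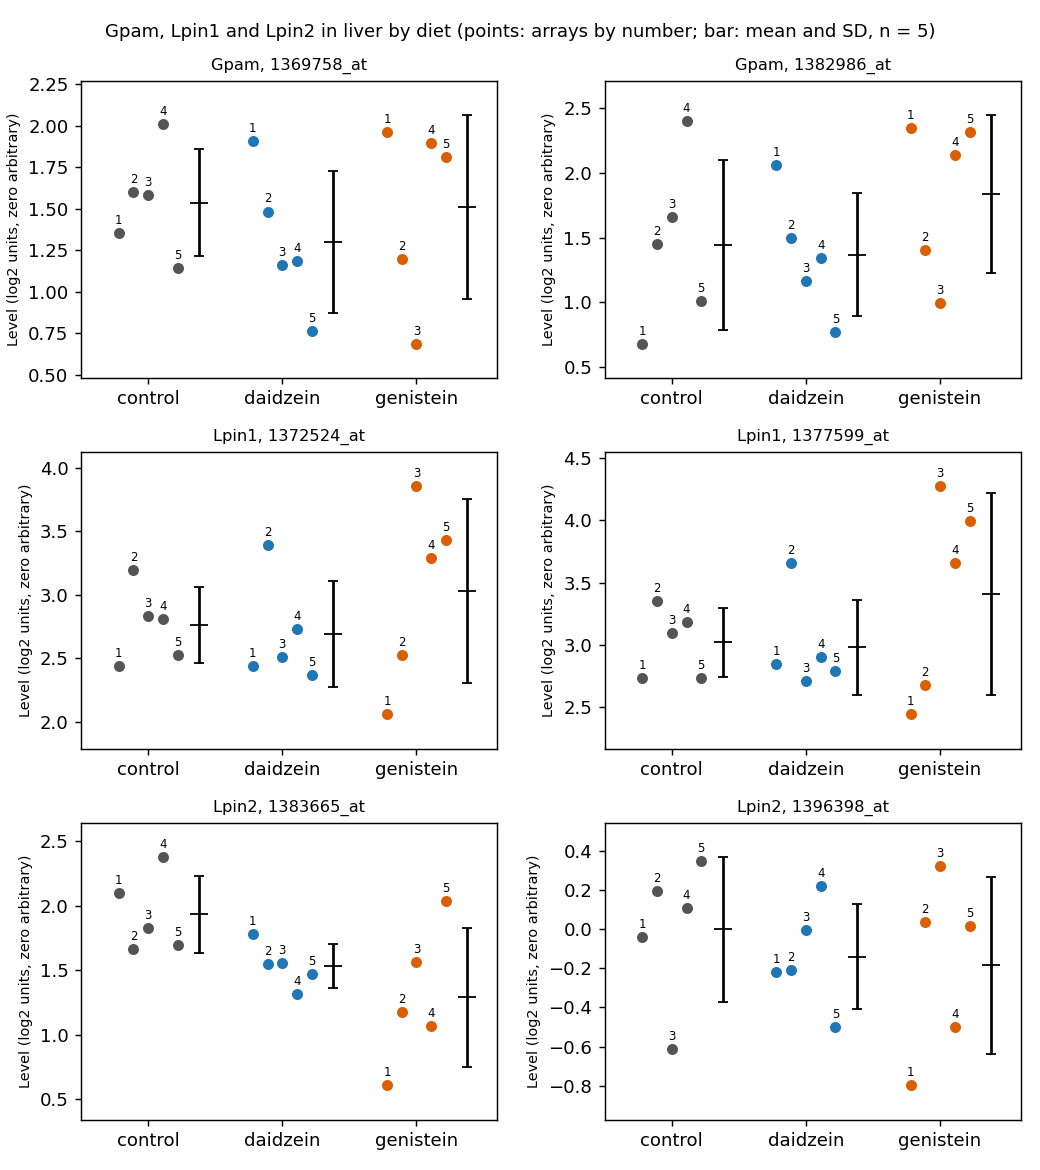
Level of each probe set of Gpam, Lpin1 and Lpin2 in log2 units with an arbitrary zero, by diet; points are arrays labelled with their replicate number, bars show mean and SD (n = 5). The diets overlap in all 6 panels; genistein arrays 3, 4 and 5 of Lpin1 1377599_at, from 3.65 to 4.28, stand apart from genistein 1 and 2 at 2.44 and 2.68.

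Dgat1, the other enzyme of the last step, which largely re-esterifies fatty acids taken up from outside, showed a small difference. It read 2.70, 2.77, 2.61, 2.83 and 2.79 in control arrays 1 to 5, 2.68, 2.80, 2.96, 2.92 and 2.82 with daidzein, and 2.87, 3.01, 2.90, 2.83 and 2.89 with genistein. The genistein arrays stood above the controls by a hair, since genistein 4 and control 4 both rounded to 2.83. Genistein minus control was 0.16 (interval 0.01 to 0.31, 1.12-fold, adjusted p = 0.437), daidzein minus control 0.09 (interval -0.06 to 0.25, adjusted p = 0.753) and genistein minus daidzein 0.07 (interval -0.09 to 0.22, adjusted p = 0.859). Dgat1 is thus far from called, and its difference from control with genistein was smaller than that of either Dgat2 probe set (0.30 and 0.58), a contrast between the genes that was not itself tested.

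Mogat1 lay below the filter level and was not tested. Its arrays scattered from -3.01 to -0.00, with an SD of 0.98, 0.92 and 0.98 in control, daidzein and genistein. In a fit of all probe sets without the filter, genistein minus control was -0.22 (interval -1.42 to 0.99, limma adjusted p = 0.961) and daidzein minus control 0.22 (interval -0.99 to 1.42, adjusted p = 0.958).

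**Figure D5:**
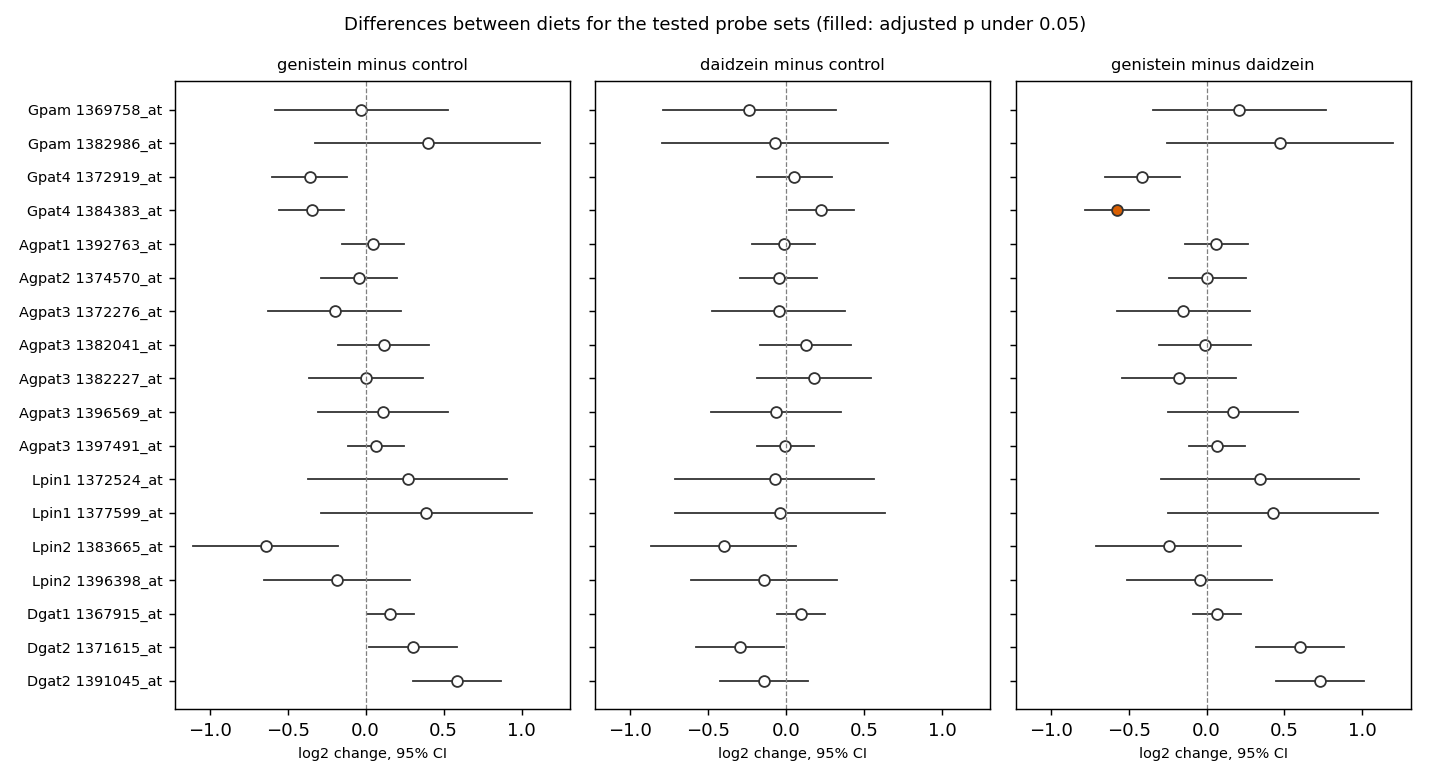
Difference between diets (log2 units, horizontal) for the 18 tested probe sets, with 95% confidence intervals, for genistein minus control, daidzein minus control and genistein minus daidzein; the filled point has an adjusted p under 0.05. That point is Gpat4 1384383_at at -0.57 for genistein minus daidzein, where the Dgat2 probe sets stand at 0.60 and 0.73.

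Over the whole set, genistein against control gave 0 called of 18 (0.322% of all tested probe sets were called in this comparison), daidzein against control 0 of 18 (0.0161% of all), and the isoflavones against each other 1 of 18. At an unadjusted p under 0.05 limma gave 6 members with genistein against control, 3 higher (Dgat1 and both Dgat2) and 3 lower (both Gpat4 and Lpin2 1383665_at), where 5.45% of all were higher and 5.5% lower. Daidzein against control gave 1 higher (Gpat4 1384383_at) and 1 lower (Dgat2 1371615_at), where 4.1% and 4.14% of all did. Genistein against daidzein gave 2 higher (both Dgat2) and 2 lower (both Gpat4), where 4.64% and 4.73% of all did. Groups that did not overlap were seen in 2 of 18 for genistein above control (Dgat1 and Dgat2 1391045_at; 1.21% of all), in 2 for genistein above daidzein (both Dgat2; 0.966% of all) and in 1 for genistein below daidzein (Gpat4 1384383_at; 1.06% of all). There were 0 for genistein below control (1.35% of all), and 0 for daidzein above or below control (0.94% of all each way). The median difference of the 18 was 0.06 with genistein and -0.05 with daidzein against control, and 0.06 between the isoflavones, where those of all tested probe sets were -0.00, 0.00 and 0.00. Probe sets of 1 gene are not independent, and a median near 0 does not show whether single members differ in opposite directions.

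Other genes of glycerolipid and phospholipid synthesis were taken from a list of 5 groups covering glycerol 3-phosphate supply, other acyltransferases, other phosphatidate phosphatases, the phospholipid branch and acyl-CoA synthetases. Of its 55 tested probe sets for 39 genes, 0 were called higher and 0 lower in each of the 3 comparisons (limma). At an unadjusted p under 0.05 there were 7 higher and 7 lower with genistein against control, 1 and 4 with daidzein against control, and 7 and 4 for genistein against daidzein, beside the shares of all probe sets given above. The list medians were -0.01, -0.03 and 0.03.

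The gene of the list nearest a call was Acsl4, an acyl-CoA synthetase that prefers arachidonic acid: it read 4.62 ± 0.09 with control, 5.03 ± 0.32 with daidzein and 5.43 ± 0.32 with genistein (SD, n = 5 each; genistein minus control 0.81, SE 0.16, adjusted p = 0.0501; daidzein minus control 0.41, adjusted p = 0.541). Cds1, which turns phosphatidate towards phospholipids, read 0.49 ± 0.28, 0.75 ± 0.31 and -0.07 ± 0.31 in the same order, with genistein minus daidzein at -0.82 (adjusted p = 0.0892) and genistein minus control at -0.56 (adjusted p = 0.236). Acsl5, an acyl-CoA synthetase of liver and gut, read 6.39 ± 0.20, 6.17 ± 0.20 and 6.65 ± 0.15 on 1386926_at, with genistein minus daidzein at 0.49 (adjusted p = 0.124). Its dimmer probe set 1397375_at did not follow: there genistein minus daidzein was 0.06 (adjusted p = 0.894), genistein minus control was -0.22 where 1386926_at had 0.27, and daidzein minus control was -0.28 (adjusted p = 0.382). Crls1, the cardiolipin synthase, stood at 0.43 and 0.39 above control with genistein on its pair of probe sets (adjusted p = 0.238 and 0.244), and genistein minus daidzein was 0.43 on 1390717_at (adjusted p = 0.233) and 0.33 on 1379525_at (adjusted p = 0.464). Lpgat1, a lysophospholipid acyltransferase, stood at 0.30 above control with genistein on 1381193_at (adjusted p = 0.281) and at -0.04 on 1397880_at (adjusted p = 0.946). Plpp3, a lipid phosphate phosphatase, stood at -0.27 with daidzein against control on 1370950_at (adjusted p = 0.575), but at 0.08 on 1370951_at and -0.03 on 1372101_at. For genistein minus daidzein the 3 read 0.36 (adjusted p = 0.258), 0.07 and 0.25. Gk, the glycerol kinase, stood at -0.36 with daidzein against control on 1391661_at (adjusted p = 0.589) and at -0.25 on 1387491_at (adjusted p = 0.888).

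Regulators known to act on these genes were not called. Srebf1 had lower means with both isoflavones, at -0.65 with genistein (interval -1.32 to 0.03, adjusted p = 0.481) and -0.62 with daidzein (interval -1.30 to 0.05, adjusted p = 0.640) on 1388426_at, and the isoflavones differed there by -0.02. On 1371104_at it stood at -0.64 and -0.53 (adjusted p = 0.434 and 0.656). Mlxipl, the carbohydrate response factor, stood at -0.06 and -0.33 (adjusted p = 0.889 and 0.415), Nr1h3, the liver X receptor alpha, at -0.25 and -0.16 (0.337 and 0.691), and Ppara, close to the filter level, at 0.05 and 0.32 (0.970 and 0.768). Ppargc1a, a coactivator that raises Lpin1, had 1 of 3 probe sets at the filter level, with genistein 0.54 above and daidzein at -0.13 from control (0.577 and 0.933). Genistein minus daidzein was 0.67 for Ppargc1a (interval 0.01 to 1.34, limma adjusted p = 0.523) and 0.26 for Mlxipl (interval 0.04 to 0.49, adjusted p = 0.432). It was -0.12 for Srebf1 1371104_at, -0.09 for Nr1h3 and -0.26 for Ppara (adjusted p = 0.953, 0.847 and 0.825).

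For 3 members the genes with the most similar pattern were taken by Pearson r of the 15 arrays after the diet means were removed. The search covered tested probe sets with a named gene, leaving out the members themselves and symbols that start with LOC or RGD. Each member entered by its tested probe set of highest mean level: 1382986_at of Gpam, 1377599_at of Lpin1 and 1371615_at of Dgat2. Those nearest Gpam were Srsf10, a splicing regulator (r 0.88, Spearman 0.81), Ergic1, a protein of the compartment between endoplasmic reticulum and Golgi (0.88, 0.85), and Nt5c2, a cytosolic nucleotidase (0.88, 0.83). Nearest Lpin1 were Pink1, a mitochondrial kinase (0.87, 0.85), Zfpm1, a cofactor of GATA factors (0.85, 0.80), and Slx9 (0.84, 0.84). Nearest Dgat2 were Fkbp8, a mitochondrial immunophilin (0.85, 0.72), Pmm2, a phosphomannomutase (0.84, 0.66), and Krba1 (0.84, 0.88). These are the highest of all such correlations, over few arrays, and all points share the arrays' own signal differences. Among members of different genes the highest r was 0.88, between Agpat3 1372276_at and Dgat1.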

How the data were processed

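The authors deposited 1 table of 31099 probe sets in 15 arrays. The deposited values are scores: the log signal of each array was standardized before the deposit by the authors. This is inferred from the values, since 493 of 493 gaps between values held by at least 100 probe sets became whole steps (within 0.01) after exponentiation with 1 scale per array. The authors' background correction, probe summary and normalization have no description in the sources used. The 15 scales ran from 2.54 to 2.79 log2 units per deposited unit; values were multiplied by their mean, 2.60, so every fold rests on this inference, and the planned test was applied to these rebuilt log2 values. After 57 control probe sets were removed, quantile normalization was applied (limma 3.58.1, R 4.3.3), and 18625 of 31042, those whose mean level reached the 40th percentile, were tested with lmFit and eBayes over all 15 arrays (12 residual and 2.58 prior degrees of freedom). Each comparison was adjusted by Benjamini-Hochberg over the 18625, threshold 0.05. Fits that left out arrays kept the normalization of all 15.

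Members, lists and tests were chosen with earlier results of these data known. The naming rule took all member probe sets; of the list of other synthesis genes, any that were called and the 4 genes of lowest p per comparison; 5 regulators; and the 3 closest patterns for Gpam, Lpin1 and Dgat2. The array's annotation gave 1 symbol to 20826 probe sets, several to 436 and none to 9780. For the 20758 of the 20826 whose gene number matched the current rat gene table, the symbol of that table was used. For the others the annotation's symbol was kept. The number of arrays limits precision, and p-values measure the spread between arrays that titles call biological replicates. Arrays with the same title number were checked for pairing on the residuals: 1 of 15 pairs correlated above 0.1 (r from -0.163 to 0.109), so a block was an alternative only. The steps were run on simulated data with independent noise and a common spread for all diets. The shifts added there were larger than any difference of a tested member, so that run does not bear on the differences reported here. Alternatives covered normalization, scale, background, filter, variance model, samples and arrays left out. Among these, control 1, the array with the largest scale (2.79) and the highest deposited median (0.127), and daidzein 5, the lowest array for both Dgat2 probe sets, were left out as a pair.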

Additional observations from a re-analysis of the deposited data

Results flagged for a closer look

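Gpat4 1384383_at differed between the isoflavones by the test of the difference itself (genistein minus daidzein -0.57 on the log2 scale, limma adjusted p = 0.0344). Single arrays stood far from the other 4 of their diet in 4 of 63 groups of 5, where chance gives about 1 in 20. Daidzein 1 read 0.38 on Agpat3 1372276_at, where the other daidzein arrays read 1.10 to 1.32. Genistein 4 read -3.48 on the dim Agpat3 1380480_at, against -2.11 to -1.92. Daidzein 2 read 3.66 on Lpin1 1377599_at, against 2.71 to 2.90. Daidzein 5 read 4.11 on Dgat2 1391045_at, against 4.52 to 4.66, and genistein minus daidzein was 0.64 there without it (adjusted p = 0.104).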

How the results depend on the processing

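Member calls. Genistein against daidzein gave 1 member call (Gpat4 1384383_at). It gave 0 with the values as deposited, with median centring, without the filter, with only the 10 arrays compared, with a replicate block, and when control 1 and daidzein 5 were both dropped, and 2 with 16 added to the rebuilt intensities and with the mean-dependent robust variance; leaving out 1 array gave 0 to 2. For Gpat4 1384383_at the difference stayed between -0.62 and -0.49 throughout, and its adjusted p was 0.0566 as deposited, 0.192 with median centring, 0.101 without the filter (30945 tested) and 0.103 without control 1 and daidzein 5. Genistein against control gave 1 member call with the robust variance and 0 to 1 with 1 array left out. In the list of other synthesis genes it gave 1 call with 16 added and 1 with the robust variance, and 0 to 1 with 1 array left out. Daidzein against control gave 0 member calls in all 19 alternatives.

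All probe sets. Genistein against control gave 60 calls: 34 with median centring, 14 without the filter, 0 with only the 10 arrays, 17 with the replicate block, 110 with the robust variance, 4 without control 1 and daidzein 5, and 10 to 203 with 1 array left out, the latter without genistein 4. Daidzein against control gave 3: 6 with the robust variance, 1 without control 1 and daidzein 5, and 2 to 8 with 1 array left out. Genistein against daidzein gave 21: 9 with median centring, 35 with 16 added, 3 without the filter, 2 with only the 10 arrays, 2 with the replicate block, 53 with the robust variance, 4 without control 1 and daidzein 5, and 3 to 136 with 1 array left out. The block changed no other member call. The cause of these changes was not tested. In each comparison, leaving out 1 array gave more calls in some fits and fewer in others.

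Signs. Differences near 0 changed sign without being called. For genistein minus control, Agpat3 1382227_at was -0.020 as deposited and -0.024 without control 1 and daidzein 5. For daidzein minus control, Agpat2 was 0.0096 and Agpat3 1397491_at 0.0091 with median centring, and without control 1 and daidzein 5 Agpat1 was 0.037, Agpat2 0.026 and Agpat3 1397491_at 0.061. For genistein minus daidzein, Agpat2 was -0.029 as deposited, -0.011 with median centring and -0.065 without those arrays, and Agpat3 1382041_at 0.0035 with median centring. With 1 array left out the changed signs were these. Genistein minus control: Gpam 1369758_at -0.14 to 0.18, Agpat1 -0.027 to 0.092, Agpat2 -0.13 to 0.020, Agpat3 1382227_at -0.12 to 0.075. Daidzein minus control: Gpam 1382986_at -0.26 to 0.17, Agpat1 -0.054 to 0.019, Agpat2 -0.093 to 0.022, Agpat3 1372276_at -0.13 to 0.12, 1396569_at -0.17 to 0.067 and 1397491_at -0.068 to 0.031, Lpin1 1372524_at -0.25 to 0.037 and 1377599_at -0.21 to 0.045. Genistein minus daidzein: Agpat1 -0.012 to 0.11, Agpat2 -0.084 to 0.068, Agpat3 1382041_at -0.11 to 0.095, Lpin2 1396398_at -0.17 to 0.11. Gpat4 and Dgat2 kept the sign of genistein minus daidzein and of genistein minus control in all 19 alternatives.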
